A study of Bos taurus with 90 samples.

Results

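A group of 150 genes was followed whose counts peaked in the mural granulosa cells (MGCs) of healthy medium follicles, out of 27270 genes listed for bovine antral follicles. The members were chosen from measured values. In the MGC libraries of 10 healthy follicles, a gene needed a mean of at least 10 CPM (counts scaled to a common library total) in medium follicles, and each medium library had to lie above each small and each large library. Of 8269 genes with that mean, 840 met both conditions (10.2%), and the 150 with the largest difference between the medium mean and the higher of the small and large means, on the log2(CPM + 1) scale, were taken. The peak in these 10 libraries is therefore the rule itself and no result.

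The study sequenced 1 MGC sample, 1 cumulus cell (CC) pool and 1 oocyte from each of 30 untreated antral follicles of slaughterhouse cows, 10 small (3.1 to 3.8 mm), 10 medium (6.2 to 7.1 mm) and 10 large (9.6 to 11.6 mm). It removed 3 follicles on sequencing quality, by their mapping rates and share of mitochondrial sequence. Of the remaining 27 it named 10 as healthy from marker levels in MGCs, so the healthy set was itself picked on MGC expression. By the same markers the study classed the rest as entering early atresia and kept them out of its stage comparisons, so they are no equivalent of the healthy set, and follicle health and the libraries that the rule used cannot be told apart. These were the small follicles S4, S5 and S6, the medium follicles M5, M6 and M8, and the large follicles L5, L8, L9 and L10. The 17 others were the small follicles S1, S2, S3, S7, S8 and S9, the medium follicles M1, M2, M3, M4 and M7, and the large follicles L1, L2, L3, L4, L6 and L7. No genotype, breed or age was given for the groups used here, and which follicles came from the same animal was not given either, so p-values measure the spread between follicles that may share an animal.

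Mural granulosa cells line the wall of the antral follicle. They divide as the follicle grows, answer to follicle-stimulating hormone, and turn thecal androgen into oestradiol with aromatase. During antral growth, responsiveness to luteinising hormone is gained, and the follicle that becomes dominant continues to grow while its neighbours regress. CCs surround the oocyte and are coupled to it by gap junctions. No table used here pairs the Ensembl identifiers of the counts with gene symbols or sequences, so the roles of the 150 genes are not described and the markers of granulosa, theca and other cells were not checked. Counts are also not divided by gene length, and values are compared between libraries, not between genes.

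The MGC libraries held from 26739954 to 39266980 counts. The least abundant member had 168 counts in any healthy medium MGC library and 2 in any healthy small or large one. The column of the CC pool of S7 holds counts for few genes, and this pool was left out wherever all retained CCs are described.

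The summed level of the 150 genes in the healthy MGCs was 6865 CPM in S4, 5217 CPM in S5 and 6763 CPM in S6. It was 13584 CPM in M5, 20930 CPM in M6 and 21010 CPM in M8. In the large follicles it was 5629 CPM in L5, 2667 CPM in L8, 3408 CPM in L9 and 7373 CPM in L10. M6 and M8 were alike and M5 lay lower, with the lowest of the 3 medium values for 128 of the 150 genes. L8 was the lowest of the 10 libraries for 103 genes and L9 for 37. These are bulk libraries, in which fewer cells of a type and less RNA per cell cannot be told apart.

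The difference that ranked the members ran from 2.60 to 1.23 on the log2 scale, with a median of 1.39. The 3 genes just inside the limit had differences of 1.2265 to 1.2298 and the 3 just outside 1.2118 to 1.2259, so nothing separated the last members from the next genes. The medium mean was above 100 CPM for 46 genes and from 10 to 20 CPM for 21. In these same libraries, which chose the genes, the small mean was above the large mean for 138 genes (45.7% of all 8269 genes), and each small value lay above each large value for 36 genes (12.0% of all genes).

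The remaining MGC libraries gave the values that the rule did not use. Across the 6 small follicles of the other retained set, the summed level was lowest at 3053 CPM in S9, had a median of 3979 CPM and was highest at 10658 CPM in S1. In the 5 medium follicles it was 10831 CPM in M1, 3200 CPM in M2, 3923 CPM in M3, 3249 CPM in M4 and 3826 CPM in M7. Across the 6 large follicles it was lowest at 2604 CPM in L4, had a median of 3681 CPM and was highest at 10808 CPM in L2. The 3 stages overlapped, and each had 1 library, S1, M1 or L2, far above its median. Of these medium libraries, M1 alone exceeded the highest healthy small or large library, L10, as did S1, S3 and L2 in the other stages.

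**Figure D1:**
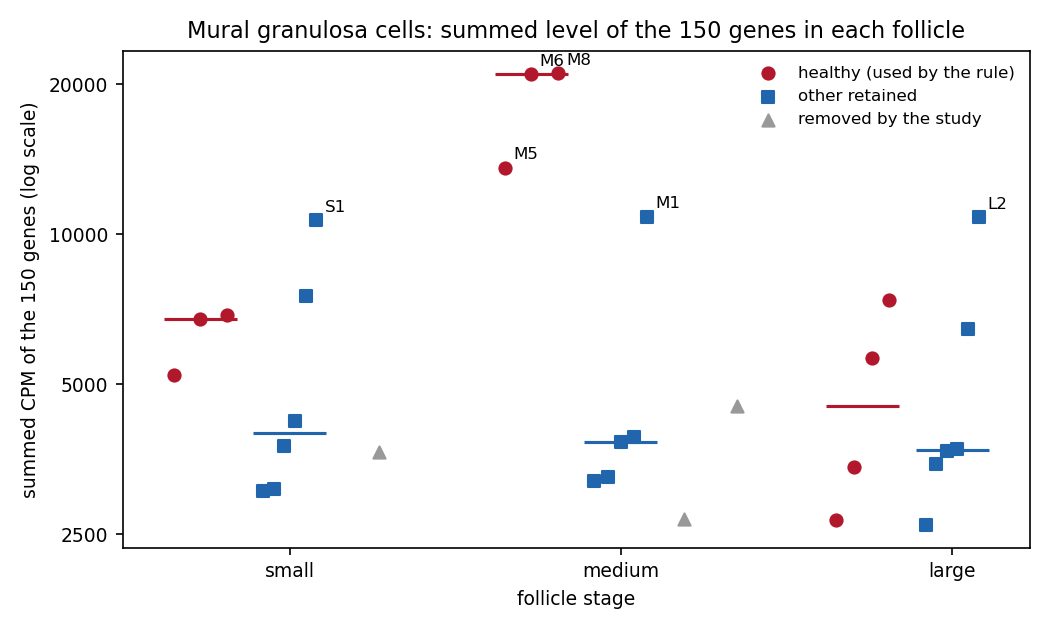
Summed CPM of the 150 genes in each MGC library (vertical axis, log scale) by follicle stage (horizontal axis), with red circles for the 10 healthy follicles that the rule used, blue squares for the 17 other retained follicles, grey triangles for the 3 removed follicles and short lines for the medians of the red and blue groups. The 3 healthy medium libraries stand at the top by the rule, and among the blue squares S1 at 10658 CPM, M1 at 10831 CPM and L2 at 10808 CPM stand above the rest of their own stage.

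No member was higher in medium than in small follicles in these 17 MGC libraries by edgeR's quasi-likelihood test, with an adjusted p under 0.05 and a fold change over 2 (0.00672% of the 14876 genes tested). The count was also 0 against large follicles (0% of genes tested). With the unadjusted p it stayed 0 in both comparisons (1.86% and 0.592% of genes tested), while 1 member was lower in each (5.1% and 1.6% of genes tested). This last count depended on M1. Without it, 81 members were lower than in small follicles (7.81% of genes tested) and 57 lower than in large ones (3.84% of genes tested) at the unadjusted p, and none at the adjusted p. The unadjusted count of higher members also moved. Without L2, 5 members were higher than in large follicles, beside 118 of 14869 genes tested. Leaving out 1 library gave at most 1 member higher than in small follicles. That was so without S1 (beside 158 of 14874 genes tested), without M3 (181 of 14863) and without L2 (250 of 14869). DESeq2 called no member higher against small (0.255% of genes tested) or large follicles (0% of genes tested) and 1 lower than in small follicles (1.52% of genes tested), with no adjusted p for 10 members. A p that misses the threshold does not show that the stages were alike, and the fits of the single genes named further on give approximate errors.

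The median fitted log2 fold change of the 150 genes was -0.12 against small follicles, with 62 above 0, and 0.01 against large follicles, with 76 above 0. Over all genes tested the medians were -0.022 and -0.0038. These medians depended on single libraries. Without M1 they were -1.55 and -1.22, and without L2 the median against large follicles was 0.60, while without S1 the median against small follicles was 0.32. On means of log2(CPM + 1), which a single high library moves less, the median differences were -0.54 and -0.23, so the comparison with large follicles differed in sign between the 2 measures.

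By the order of these means, 109 of the 150 genes were highest in small, 30 in large and 11 in medium follicles of the other retained set, beside 37.4%, 31.7% and 30.9% of all 8269 genes. The medium mean exceeded the small mean for 22 members (51.7% of all genes) and the large mean for 32 (50% of all genes). No member had each medium library above each small and large one (0.0121% of all genes). The label of a peak in medium follicles thus described the 10 libraries that chose the genes, and the other retained MGCs, from follicles that the study did not class as healthy, did not show that order.

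The single libraries were also set against the highest healthy small or large value of each gene. The rule used these limits, so the shares of all genes are no test, and the libraries are compared with each other. S1 lay above all 7 healthy small and large libraries for 118 of the 150 genes, against 39.7% of all 8269 genes. L2 did so for 106 genes (14.6% of all genes) and M1 for 86 (22.9% of all genes). In the other 14 retained libraries the count ran from 1 in L4 to 17 in L6, and in those same libraries 14% to 34.9% of all genes lay above these limits. M7, at 7.0 mm within the size of the healthy medium follicles, had 10 such genes, and M2, which shared the diameter of M1 at 6.2 mm, had 5.

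**Figure D2:**
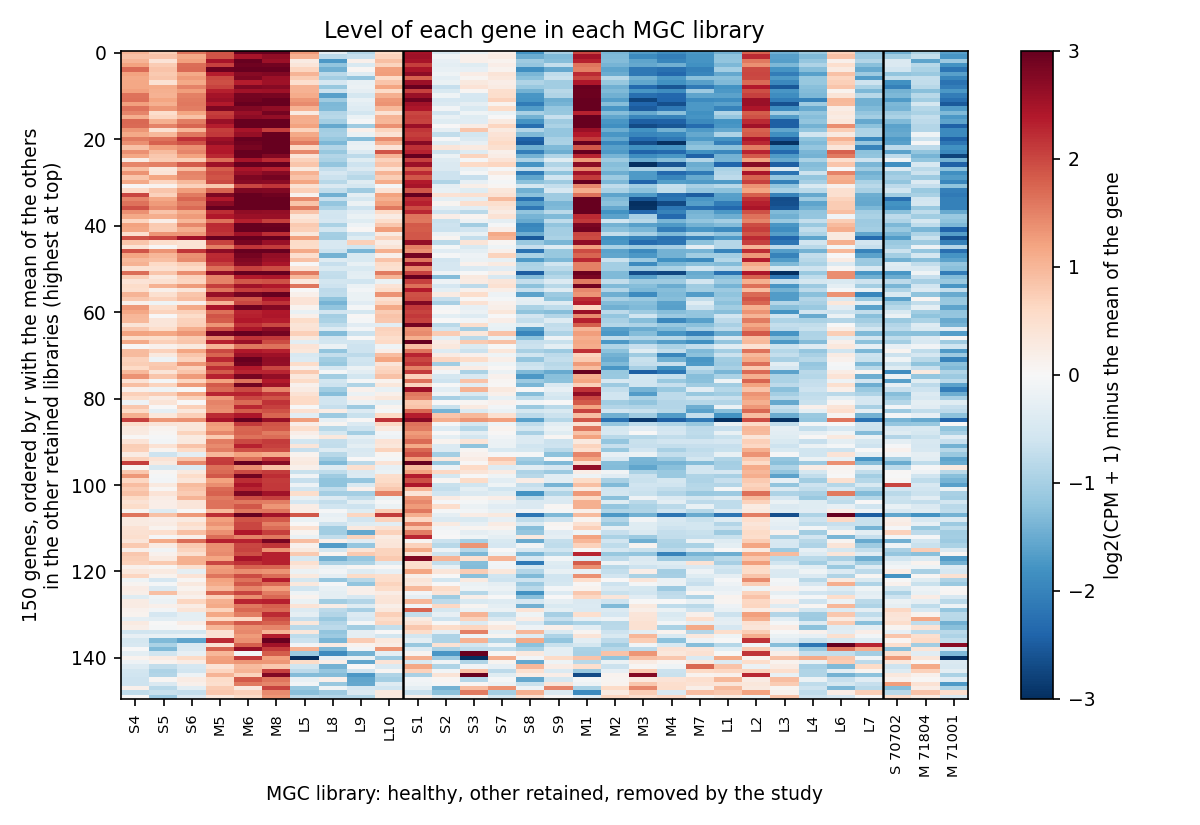
Level of each of the 150 genes (rows, ordered by how closely each followed the mean of the others in the 17 other retained libraries) in 30 MGC libraries (columns, with black lines between the healthy, the other retained and the removed follicles), as log2(CPM + 1) minus the mean of the gene and cut at 3 in either direction. The dark red columns of the other retained set are S1, M1 and L2, and they hold the highest of the 17 values for 130 of the 150 genes.

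The follicle identifiers begin with 3 digits whose meaning the labels do not state, and these divided the libraries in a way that touched the peak. M5 and M8 shared these digits with each other alone, as did S4, S5 and S6, so stage and whatever these digits stand for cannot be told apart for them. M6 shared its digits only with a medium follicle of 7.1 mm that the study had removed on sequencing quality. The summed level in M6 was 7.80 times that of this follicle, and 149 of the 150 genes were higher in M6, against 55% of all genes. Both were medium follicles, but M6 was among the libraries in which the rule asked for high values, so the gap is a description.

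Of the other retained medium follicles, M2, M3, M4 and M7 shared the first digits with a retained follicle of another stage. The ratio of the summed levels was 1.05 for M3 over S2, 1.06 for M4 over S9, 1.04 for M7 over L1 and 0.865 for M2 over L3. The number of members higher in the medium follicle was 33, 29, 61 and 82 in these pairs, beside 63%, 47.4%, 46% and 43.1% of all genes. M3 was lower than L2, with a ratio of 0.363 and 11 members higher in M3 (57.9% of all genes). Against healthy large follicles, which the rule used, the ratio was 1.12 for M7 over L9, 1.199 for M2 over L8 and 0.532 for M3 over L10, with 31, 47 and 18 members higher in the medium follicle (59.1%, 51.1% and 65.4% of all genes). With the first digits as a covariate, edgeR called none of the 14876 genes in the 17 libraries, members included, and the median log2 fold change was -0.56 against small and -0.79 against large follicles. Among the 17, M1 and S7 each had digits of their own, and L4 and L7, both large, shared theirs only with each other. These libraries therefore did not inform the stage differences of this fit, so the medians rest on the others and leave M1 out in effect.

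Within a stage, the healthy MGCs were compared with the others as a description, since the rule used the healthy values. All 3 healthy medium libraries lay above all 5 others for 84 of the 150 genes, against 14.2% of all genes, and the median difference of the means was 2.56 on the log2 scale. The healthy small libraries lay above the other small ones for 4 genes (5.76% of all genes), with a median difference of 0.73. No member had all healthy large libraries above all other large ones (0.641% of all genes), and there the median difference was 0.30. In the 3 removed follicles the summed level was 3649 CPM in the small one and 4516 CPM and 2682 CPM in the medium ones.

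Across the 17 MGC libraries of the other retained set, the 150 genes moved together. The median Pearson r over all pairs of members was 0.76 (n = 17 libraries), compared with 0.20 for the 690 genes that met the same conditions but ranked lower and 0.04 for all 8269 genes. These points share library, depth and sample handling. The first principal component held 70.0% of the variance of the 150 genes, 31.0% of that of the lower-ranked genes and 23.3% of that of all genes. After the stage means were removed, the median r was 0.79, so the shared part lay within stages.

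The shared movement was weaker without S1, M1 and L2, a choice made with their values in view. S1 was the highest of the 17 libraries for 63 genes, M1 for 50 and L2 for 17, whereas 17.1%, 10.1% and 2.62% of all genes were highest in them. Without these 3, the median r of the 150 genes was 0.43 (n = 14 libraries), and that of all genes was 0.03. S3 and L6 came next in summed level, with 7523 CPM and 6449 CPM. S1, S3 and L6 carried the same first digits, as did S8 with 3086 CPM, and M1 shared its own with no other follicle.

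The members did not follow this shared profile equally. The r of each gene with the mean of the others ran from -0.47 to 0.99, with a median of 0.91, and it was above 0.9 for 80 genes and below 0 for 8. None of the 80 genes was highest in medium follicles of the other retained set, whereas 5 of the 8 genes with an r below 0 were. These counts are no test, because r was taken over the same libraries. The typical level of the members was itself lowest at the medium stage there. A gene that follows this profile closely can therefore hardly peak at that stage. In the healthy MGCs, which chose the genes, all 80 genes had a higher small than large mean. So did 52 of the 62 genes with an r from 0 to 0.9 and 6 of the 8 with an r below 0. Among 8119 non-members with a mean of at least 10 CPM, 66 had an r above 0.9 with the mean of the members, and 58 of these were among the 690 genes that met the conditions of the rule. The 3 non-members most like the members had r of 0.99, 0.98 and 0.98 and held places 220, 217 and 153 in the ranking.

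**Figure D3:**
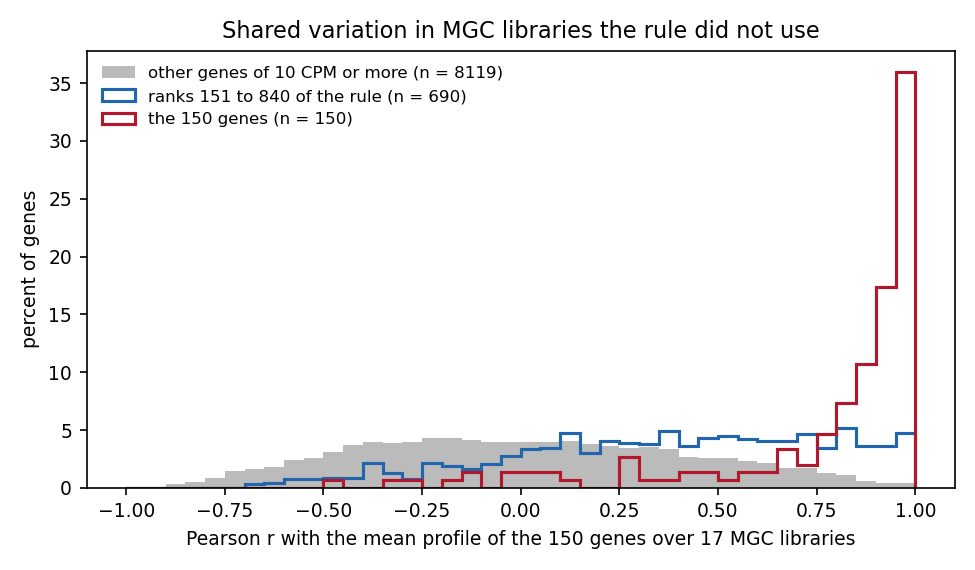
Distribution of the Pearson r (horizontal axis) between each gene and the mean log2(CPM + 1) profile of the 150 genes over the 17 other retained MGC libraries, as percent of genes (vertical axis), for the 150 genes (red, each against the mean of the others), the 690 lower-ranked genes (blue) and all non-members of at least 10 CPM (grey). The red outline is concentrated at the right, where 80 of 150 genes lie above 0.9, with a tail of 8 genes below 0.

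Of the single genes, 4 are given by identifier. ENSBTAG00000045547 had the largest difference in the healthy set. It stood at 102 CPM in M5, 55.5 CPM in M6 and 238 CPM in M8, and the 7 healthy small and large libraries ran from 6.22 CPM in S6 to 35.5 CPM in L9. In the other medium MGCs it was 16.3 CPM in M1, 11.6 CPM in M2, 35.2 CPM in M3, 8.29 CPM in M4 and 18.5 CPM in M7. The other small MGCs ranged from 8.62 CPM in S9 to 46.6 CPM in S8 and the other large ones from 12.7 CPM in L4 to 96.1 CPM in L2, so the stages overlapped. This gene was not high in S1 or M1, and its r with the mean of the other members was 0.27. Its log2 fold change in the other retained set was -0.26 (SE 0.60) against small and -0.75 (SE 0.61) against large follicles, with adjusted p of 0.896 and 1 from edgeR.

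ENSBTAG00000000638 had the next largest difference, with 29.3 CPM in M5, 49.3 CPM in M6 and 38.7 CPM in M8. The other healthy libraries ran from 2.06 CPM in L8 to 13.3 CPM in L10. It followed the common profile, with an r of 0.92, and in the other retained set it reached 24.5 CPM in S1, 9.84 CPM in M1 and 12.9 CPM in L2. The remaining other medium libraries were at 1.21 CPM in M2, 2.97 CPM in M3, 1.31 CPM in M4 and 0.879 CPM in M7. The log2 fold change there was -1.32 (SE 0.76) against small and -0.58 (SE 0.75) against large follicles, with adjusted p of 0.473 and 1 from edgeR.

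ENSBTAG00000005877 and ENSBTAG00000008026 had the lowest mean log2 fold change of medium against the other stages in the other retained set, -2.38 and -1.50. The former was at 11 CPM in M5, 23.1 CPM in M6 and 17.4 CPM in M8, and from 0.114 to 10.9 CPM in the healthy small and large MGCs, so M5 cleared S4 narrowly. In the other medium MGCs it was at 2.98 CPM in M1 and at 0.0593 to 0.161 CPM in the other 4. The highest value of all MGCs was 44.4 CPM in S1, above the healthy medium libraries. Its log2 fold change against small follicles was -3.34 (SE 1.63), with an adjusted p of 0.403 from edgeR.

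ENSBTAG00000008026 was at 5.16 CPM in M5, 14.6 CPM in M6 and 24.6 CPM in M8, and from 1.32 to 4.29 CPM in the other healthy MGCs. The other retained medium libraries ran from 0.848 CPM in M7 to 3.23 CPM in M3, and the other small ones from 0.904 CPM in S8 to 5 CPM in S2. Its log2 fold change in these MGCs was -0.35 (SE 1.07) against small and -2.64 (SE 1.15) against large follicles. The low mean thus came from the large side, and edgeR called neither at the adjusted p. It was higher in the large libraries L6, with 41.6 CPM, and L7, with 20.9 CPM, and in the removed medium follicle of 7.1 mm, with 28.3 CPM, and it did not follow the common profile (r = 0.14). In the CC pools it was more abundant, with 19.7 CPM in S4, 60.7 CPM in S5 and 70.8 CPM in S6, then 95.3 CPM in M5, 187 CPM in M6 and 584 CPM in M8. The healthy large CCs ranged from 114 CPM in L10 to 244 CPM in L9. In this healthy set the small CCs did not overlap the rest, while medium and large ones did. In the other CCs the stages overlapped, with 23.5 to 116 CPM in small, 25 to 133 CPM in medium and 13.7 to 254 CPM in large follicles. The log2 fold change of medium against small CCs was 2.60 (SE 0.62), with an adjusted p of 0.305 from edgeR.

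The CCs and oocytes of the same follicles were not used by the rule. They were made with another library protocol than the MGCs, with amplification, so cell type and protocol cannot be told apart in any difference between them. In the healthy CCs, the summed level was 12623 to 16951 CPM in the 3 small, 11900 to 20402 CPM in the 3 medium and 12003 to 16466 CPM in the 4 large follicles. M8 was the high medium pool, and the stages overlapped. In healthy oocytes it was 32443 to 34035 CPM in small, 32776 to 33795 CPM in medium and 31976 to 34073 CPM in large follicles.

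edgeR called no member higher in medium than in small healthy CCs (0.00667% of 14984 genes tested) or than in large ones (0% of genes tested). With the unadjusted p, 11 and 12 members were higher (6.39% and 5.2% of genes tested) and none lower (1.93% and 2.48% of genes tested), and leaving out 1 pool moved the counts of higher members to between 4 and 25 and between 3 and 23. They were 4 and 3 without M8, beside 818 and 573 of 14925 genes tested. Without M6, 25 members were higher than in small follicles, beside 1413 of 14941 genes tested. Without L5, 23 were higher than in large ones, beside 1921 of 14928 genes tested, so the counts over all genes moved as well. DESeq2 called 1 higher in each (0.808% and 0.501% of genes tested). The median log2 fold change was 0.30 against small and 0.18 against large CCs, beside 0.14 and 0.03 over all genes tested. Without the CC pool of M8 the medians of the members were 0.03 and -0.11. Medium was the highest stage for 81 of the 150 genes in the healthy CCs, against 35.7% of all genes. For 4 members each medium CC lay above each small and large one (1.22% of all genes). In the other CCs, medium was the highest stage for 48 members (34.5% of all genes), and for none did the stages separate (0.0967% of all genes).

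In healthy oocytes, edgeR again called no member higher in medium than in small or large follicles (0% of 14760 genes tested in both). With the unadjusted p, 1 and 3 were higher (1.75% and 1.86% of genes tested) and 1 was lower in each (0.467% and 0.921% of genes tested). DESeq2 called 1 higher against small (0.271% of genes tested) and 0 against large follicles (0.129% of genes tested), but 14 and 47 members had no adjusted p there. The median log2 fold changes of 0.10 and 0.05 stood beside 0.04 and 0.04 over all genes. Medium was the highest stage for 60 members in healthy oocytes (37.5% of all genes) and for 67 in the other oocytes (39.3% of all genes). Each medium oocyte lay above each small and large one for 2 members in the healthy set (1.92% of all genes) and for none in the others (0.0484% of all genes).

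**Figure D4:**
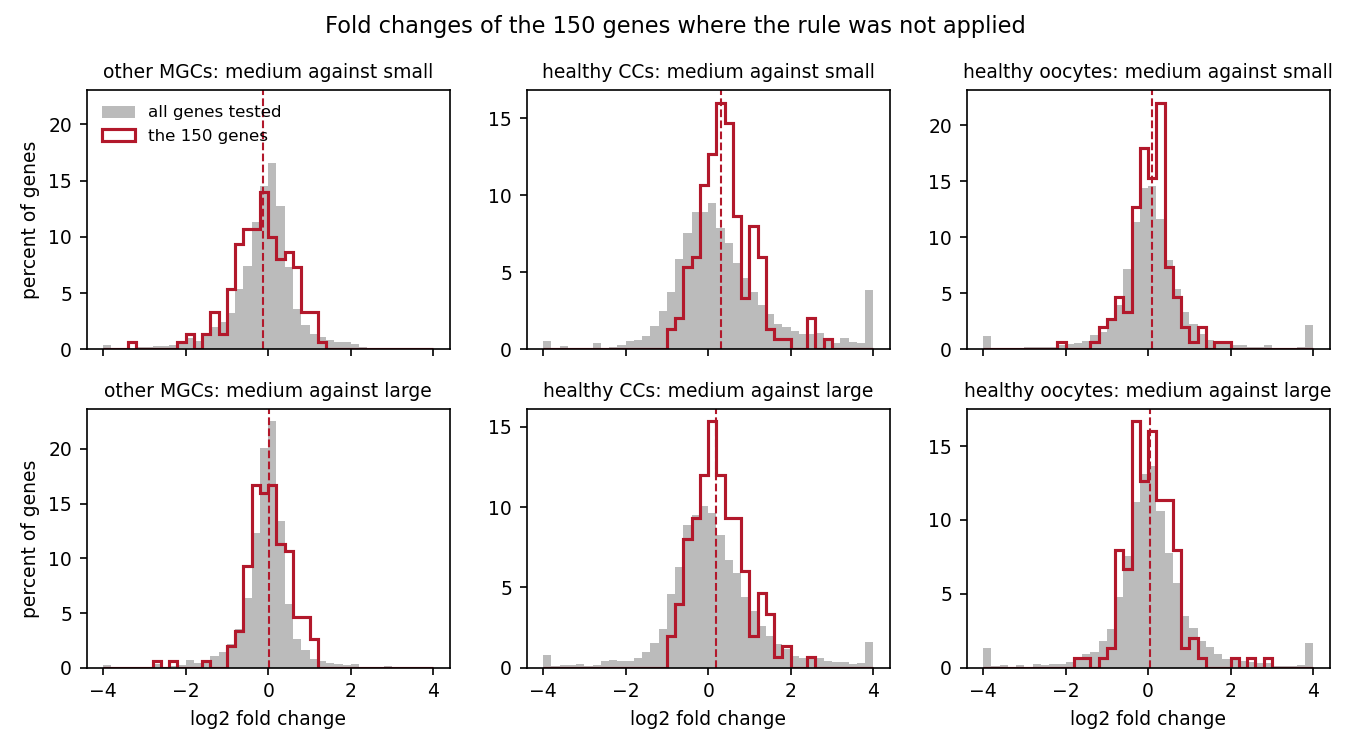
Fitted log2 fold changes (horizontal axis, values past 4 in either direction placed in the end bins) of medium against small (upper row) and against large follicles (lower row) in other MGCs, healthy CCs and healthy oocytes, as percent of genes (vertical axis), for all genes tested (grey) and the 150 genes (red outline, with their median as a dashed line). In the other MGCs the medians of the members lie at -0.12 and 0.01, in CCs at 0.30 and 0.18, and in oocytes at 0.10 and 0.05.

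The range between follicles was unlike in the 3 cell types. Over the retained follicles, the summed level ran from 2604 to 21010 CPM in MGCs, with a coefficient of variation of 75.1% (n = 27). The rule chose genes that were high in 3 of these libraries, and over the 17 libraries it did not use the sum ran from 2604 to 10831 CPM (56.7%, n = 17). In CCs it ran from 8536 to 21107 CPM (24.96%, n = 26) and in oocytes from 31167 to 35356 CPM (3.19%, n = 27). A single member made up 21.3% of the sum in oocytes, so the medians over members were also compared. The median over the 150 genes of their median level was 10.6 CPM in MGCs, 31.8 CPM in CCs and 91.2 CPM in oocytes. By these medians 105 members were highest in oocytes, 34 in CCs and 11 in MGCs, whereas 34.8%, 26.2% and 39% of all genes were.

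The members were thus not confined to MGCs. All 150 had a median above 1 CPM in MGCs, 149 in CCs and 142 in oocytes. Even in healthy medium follicles, where the rule placed the MGC values high, the mean was higher in oocytes than in MGCs for 89 genes and higher in CCs than in MGCs for 41. No share of all genes was taken for the counts in this paragraph, so they describe the members and do not set them apart from other genes. The 80 genes with an r above 0.9 had a median of 27.2 CPM in CCs and 99.9 CPM in oocytes, and the 8 genes with an r below 0 had 76.5 CPM and 46.1 CPM. The 62 genes between them had 35.1 CPM and 86.9 CPM. Counts are not divided by gene length, so these groups of genes are not compared with each other.

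**Figure D5:**
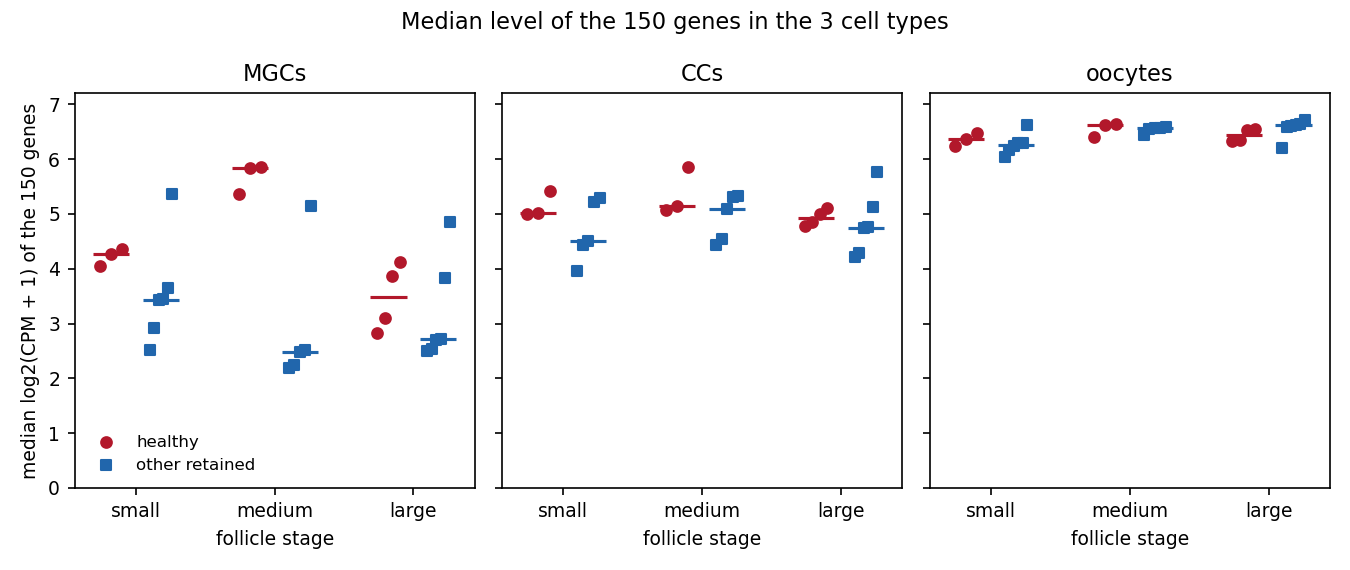
Median log2(CPM + 1) of the 150 genes in each retained library (vertical axis) by follicle stage (horizontal axis) for MGCs, CCs and oocytes, with red circles for healthy and blue squares for other follicles and short lines for group medians; the CC pool of S7 is left out. In MGCs the healthy medium circles stand at 5.37 to 5.86 while the median of the other medium follicles is 2.48, and in oocytes all points lie between 6.04 and 6.72.

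The shared movement seen in the 17 other retained MGC libraries was weaker in the other cells. The sets are unlike, since the CCs and oocytes here include those of the healthy follicles. In those MGCs the median pairwise r was 0.76, and 0.43 without S1, M1 and L2. The median pairwise r was 0.33 over 26 CC pools, beside 0.18 for all genes, and 0.06 over 27 oocytes, beside 0.06 for all genes. The points of each cell type share a protocol and differ in depth. Between cell types of a follicle, the mean log2 level of the members in MGCs and CCs had a Pearson r of 0.32 and a Spearman rho of 0.32 (n = 26 follicles). Without M6 and M8, the 2 follicles farthest from the median in MGCs, r was 0.16. For MGCs and oocytes, r was 0.03 (n = 27 follicles). The CC pool of L2 had the highest summed level of all retained CCs, 21107 CPM, and its MGCs were also among the 3 high libraries. The CC pools of S1 and M1 were at 8573 CPM and 14994 CPM.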

How the data were processed

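The deposited values are raw counts per gene, which the authors made from trimmed reads aligned to ARS-UCD1.2 and counted over exons with featureCounts. The methods name STAR 2.7.11b and the submitters' processing notes HISAT2 2.2.1, and which one made the table was not settled here. The MGCs were bulk libraries. The CC pools and oocytes were SMART-seq2 libraries without molecular identifiers. All 90 columns were used, and groups came from the labels and from the follicles that the study retained or named healthy.

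CPM was computed from column totals. A gene was kept if 15 or more libraries of a cell type, among retained follicles, exceeded 1 CPM, which held for 15134 genes and all 150 members. Those with a count in the libraries of a fit (14876 in other MGCs, 14984 in healthy CCs and 14760 in healthy oocytes) were tested with edgeR 4.0.16 in R 4.3.3, using TMM, glmQLFit and glmQLFTest over the 3 stages, Benjamini-Hochberg adjustment over all genes tested, an adjusted p under 0.05 and a fold change over 2. DESeq2 1.42.0 was the alternative. The quasi-likelihood test gives no standard error, so each SE was taken as the size of the log2 fold change over the square root of F. It is approximate. The fits were also run on simulated counts, in which no library stood out over many genes as S1, M1 and L2 do. That run therefore does not show what the fits could find in these libraries. Levels, orders and correlations used log2(CPM + 1) in Python 3.11.15 with numpy 2.4.6 and pandas 2.3.3, and plots matplotlib 3.10.9.

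The members, the tests and the alternatives were chosen with earlier results of these data known. Lists of genes, cell type markers and promoter motifs had been planned and were not run, since 0 identifiers could be matched to a symbol. With no symbols, 4 identifiers are given by a set rule, the 2 with the largest difference in the healthy MGCs and the 2 with the lowest log2 fold change of medium against the other stages in the other MGCs.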

Additional observations from a re-analysis of the deposited data

Results flagged for a closer look

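Groups of 4 to 6 follicles were searched for a highest or lowest value far from the others by Dixon's ratio, the gap to the nearest value over the range of the group, for the summed level and for the 4 identifiers. Of 60 groups, 15 had such a value. The chance rate of about 1 in 20 for this ratio holds for normally distributed values. CPM was used here without a log scale, and its distribution was not tested. The 15 groups are therefore not set against that rate. The values share libraries and genes, so the groups are not independent.

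The summed level in the other medium MGCs was 10831 CPM in M1 (ratio 0.905, next value 3923 CPM), and in the other large CCs it was 21107 CPM in L2 (ratio 0.644, next value 13017 CPM).

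For ENSBTAG00000000638 such values were 24.5 CPM in S1, 9.84 CPM in M1 and 12.9 CPM in L2 among the other MGCs, 13.3 CPM in L10 among the healthy large MGCs and 12.3 CPM in L4 among the other large CCs. For ENSBTAG00000005877 they were 44.4 CPM in S1 and 2.98 CPM in M1 among the other MGCs, and 158 CPM in S3 and 274 CPM in L6 among the other CCs. For ENSBTAG00000045547 they were 96.1 CPM in L2 among the other MGCs, 21.7 CPM in S8 and 48.4 CPM in L1 among the other CCs, and 0.367 CPM in L10 among healthy large oocytes, where the gene was near 0.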

How the results depend on the processing

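No paired analysis was possible because each follicle belongs to 1 stage and the replicate numbers follow accession order, and the first digits of the identifiers, whose meaning is not stated, entered as a covariate only. In the other MGCs the count of members higher in medium follicles was 0 under each alternative run against small and against large follicles, with 1 setting changed at a time. Leaving out each library gave medians of -1.55 to 0.32 against small and -1.22 to 0.60 against large follicles. In healthy CCs the count against small follicles was 1 with DESeq2, 4 without a filter, 1 with only the 2 stages compared and 11 unadjusted, beside 121, 214, 7 and 958 of all genes. Against large ones it was 1 with DESeq2, 2 without a filter and 12 unadjusted, beside 75, 94 and 779 of all genes. Leaving out each CC pool gave counts of 0 to 2 against small and 0 to 9 against large follicles. The highest came without L5, when 511 of all genes were also called higher. The medians ran from 0.03 to 0.46 and from -0.11 to 0.36. In oocytes the count against small follicles was 1 with DESeq2, 2 over all retained follicles and 1 unadjusted, and against large ones 3 unadjusted, beside 40, 7, 259 and 275 of all genes. Leaving out each oocyte gave counts of 0, with medians of 0.02 to 0.13 and 0.02 to 0.08. The cause of these shifts was not tested.

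Of the 150 members, the rule kept 144 on TMM-scaled CPM, 145 with DESeq2's size factors, 148 with a pseudocount of 0.5 and 124 with one of 5. Leaving out a healthy MGC library kept 116 (without M5, when 1785 genes met the conditions) to 147. The 3 to 6 follicles per stage limit the precision.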
